A study of Mus with 6 samples.

Results

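Inhibitory interneurons release GABA, and their subtypes are commonly told apart by the calcium-binding proteins and peptides they make. The 10 genes described here are markers of these cells: Gad1, Gad2 and Slc32a1, which make and load GABA, Sst, Vip, Npy and Cck, which encode neuropeptides, Pvalb and Calb2, which encode calcium-binding proteins, and Reln. They were chosen by name, as the probe set of each symbol with the highest mean, out of 19505 named genes on the array, and all 10 were measured, each by a single probe set. Brain tissue came from ICR mice, an outbred stock, and was taken after behavioural testing, a passive avoidance test with electric shocks. Of the 6 arrays, 2 were from the CK group, which received ginsenoside compound K at 40 mg/kg by mouth and SCOP at 2 mg/kg by injection. A further 2 were from the SCOP group, the Model group of the labels, which received SCOP at 2 mg/kg without CK, and 2 were from the Control group, which received saline. The labels and the study name SCOP as scopoletin hydrobromide. According to the methods, treatment ran for 14 days and SCOP was given from day 7. There was no group with CK and without SCOP, and neither the age and sex of the mice nor the brain region nor any pooling of animals is given in the sources used here.

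Gad1 and Gad2 encode the enzymes that make GABA from glutamate, GAD67 and GAD65, and Slc32a1 encodes the transporter that loads GABA into synaptic vesicles. These genes mark GABAergic neurons of every kind, also the projection neurons of the striatum and the Purkinje cells of the cerebellum. In the cortex and hippocampus Pvalb, Sst and Vip mark largely separate interneuron classes, Npy and Calb2 occur in part of them, and Reln encodes a secreted matrix protein made by some interneurons. Cck is also made by many excitatory neurons, Pvalb by Purkinje cells, and Reln by granule cells of the cerebellum. In whole tissue, fewer cells of a type and less RNA per cell cannot be told apart.

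The values are log2 values from RMA, a method that corrects background and puts arrays on a common scale. One array of the SCOP group, replicate 2, was unlike the rest. Over genes it correlated with the remaining arrays at 0.965 to 0.969, against 0.990 to 0.993 among these, and its control probes rich in G and C averaged 6.10, against 4.99 to 5.19. A level under the 95th percentile of the negative controls of its array, which was 4.98 to 5.55, was taken as dim. All 10 genes lay above the limit on all 6 arrays, the smallest margin being 0.74 for Npy on SCOP replicate 2. Genes whose mean lay above the mean of these limits, 8989 in all, are called bright below.

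The 3 genes of GABA synthesis and loading had similar values on 5 arrays and a much lower value on SCOP replicate 2. Gad1 read 7.79 and 7.81 on the CK arrays, 7.81 and 6.55 on the SCOP arrays and 7.59 and 7.73 on the Control arrays. SCOP replicate 1 thus lay within the CK arrays, while SCOP replicate 2 was lower than the mean of the other 5 by 2.29-fold. Gad2 read 7.46 and 7.51 in CK, 7.30 and 6.49 in SCOP and 7.67 and 7.50 in Control. Both SCOP arrays were below all CK and Control arrays for this gene, SCOP replicate 2 by far the most. Slc32a1 read 7.76 and 7.68 in CK, 7.59 and 6.36 in SCOP and 7.86 and 7.57 in Control. Its value on SCOP replicate 2 was 2.51-fold lower than the mean of the other arrays, the widest such gap of the 10 genes. Only 2.83% of bright genes deviated downward on that array by as much as Slc32a1, against 4.68% for Gad1 and 8.89% for Gad2.

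The log2 change of SCOP against Control was -0.69 for Gad2 (standard error 0.28, unadjusted p = 0.0381, adjusted p = 0.864 in limma), -0.74 for Slc32a1 and -0.48 for Gad1. Without SCOP replicate 2 these changes were -0.29, -0.13 and 0.15. For CK against SCOP the log2 changes were 0.75 for Slc32a1 (standard error 0.37), 0.62 for Gad1 and 0.59 for Gad2, each with an adjusted p = 0.89 in limma, and without SCOP replicate 2 they were 0.13, -0.01 and 0.19. In CK against Control no SCOP array enters the change itself, but SCOP replicate 2 enters the pooled spread behind its error. There Gad1 had 0.14, Gad2 had -0.10 and Slc32a1 had 0.01, and the 95% interval for Slc32a1 ran from -0.84 to 0.85. Its standard error was 0.37, and 0.16 without SCOP replicate 2. With arrays centred on their medians the value for Slc32a1 was -0.06.

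**Figure D1:**
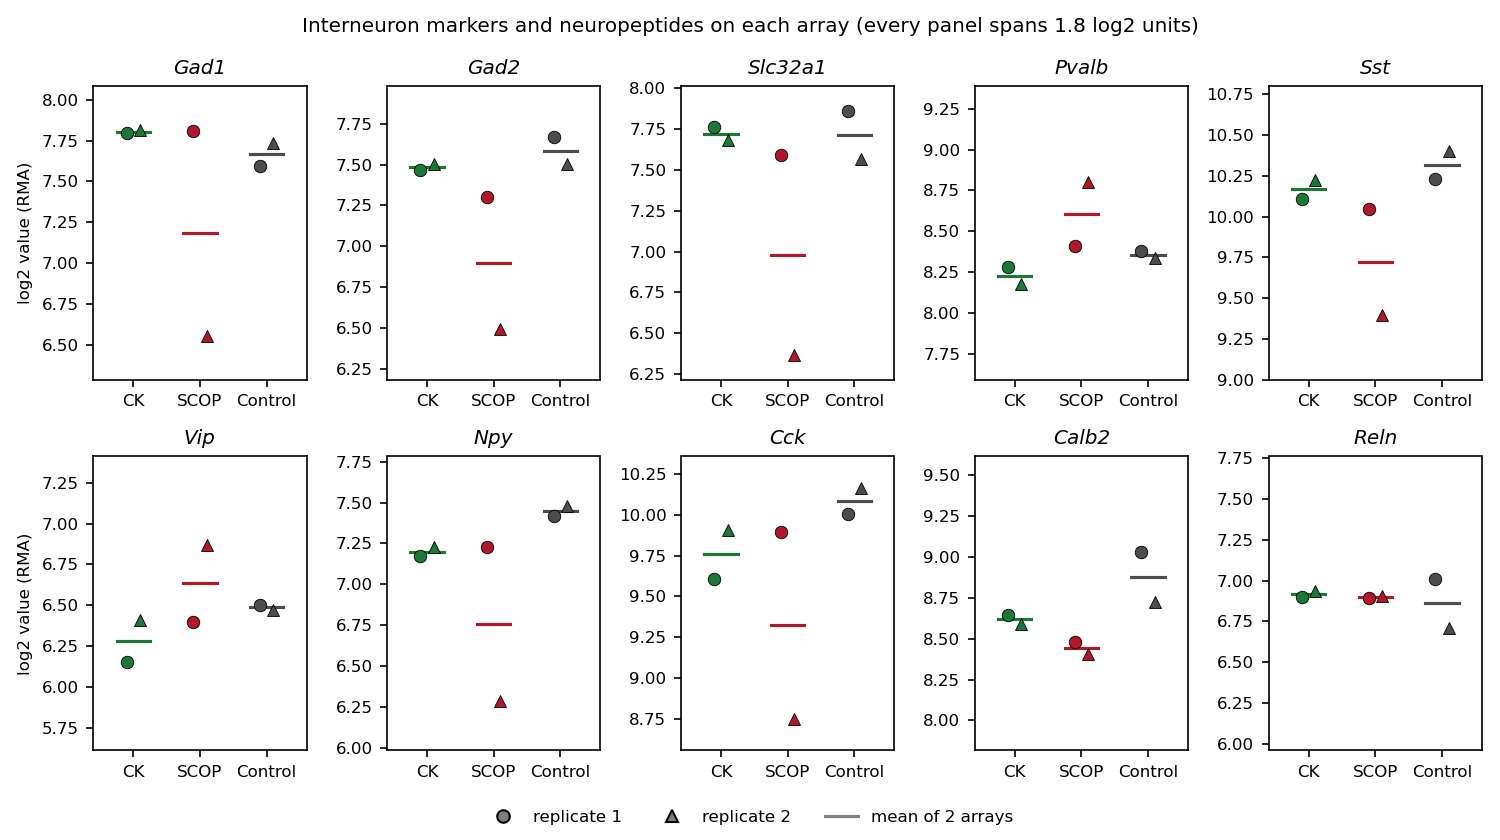
Log2 value (vertical axis) of each gene on each array, with CK, SCOP and Control from left to right, circles for replicate 1, triangles for replicate 2 and a line at the mean of the 2 arrays. SCOP replicate 2 was the lowest array for 7 genes (52.7% of bright genes) and the highest for 2, Pvalb and Vip (24.8% of bright genes), while SCOP replicate 1 lay within the range of the CK and Control arrays for 6 of the 10.

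Among the neuropeptide genes, Sst, Npy and Cck had their lowest values on SCOP replicate 2 and Vip had its highest there. Sst, which encodes the inhibitory peptide somatostatin, read 10.11 and 10.23 in CK, 10.04 and 9.40 in SCOP and 10.23 and 10.40 in Control. Both SCOP arrays were below all the others, and both CK arrays were below both Control arrays, narrowly so. Npy, which encodes neuropeptide Y, a peptide that dampens transmitter release, read 7.17 and 7.23 in CK, 7.23 and 6.29 in SCOP and 7.42 and 7.48 in Control. Here the CK arrays and SCOP replicate 1 sat together, under the Control arrays. Cck, which encodes cholecystokinin, read 9.61 and 9.91 in CK, 9.90 and 8.75 in SCOP and 10.01 and 10.16 in Control. The 4 arrays from mice given SCOP all lay below the Control arrays for both Npy and Cck.

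The log2 change of SCOP against Control was -0.76 for Cck (standard error 0.35, unadjusted p = 0.0625), -0.69 for Npy (standard error 0.30, unadjusted p = 0.0501) and -0.59 for Sst (standard error 0.25, unadjusted p = 0.0464), each with an adjusted p = 0.864 in limma. Without SCOP replicate 2 the changes were -0.19, -0.22 and -0.27. For CK against SCOP the log2 changes were 0.45 for Sst, 0.44 for Npy and 0.43 for Cck, and without SCOP replicate 2 they were 0.12, -0.03 and -0.14. CK against Control gave -0.33 for Cck (95% interval -1.14 to 0.48), -0.25 for Npy (-0.94 to 0.44) and -0.15 for Sst (-0.73 to 0.43), each with an adjusted p = 0.9999 in limma. The spread pooled over groups takes in SCOP replicate 2 here as well. Without it the standard error was 0.17, against 0.35, for Cck (unadjusted p = 0.0894 in limma) and 0.14, against 0.30, for Npy (unadjusted p = 0.119).

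Vip encodes vasoactive intestinal peptide, made by interneurons that mostly contact other interneurons. It read 6.15 and 6.41 in CK, 6.40 and 6.87 in SCOP and 6.50 and 6.47 in Control. Its value on SCOP replicate 2 was 1.40-fold that of the mean of the other arrays, where 9.97% of bright genes deviated upward by as much. The CK arrays were below the Control arrays, by a small margin on CK replicate 2. The log2 change was -0.35 in CK against SCOP (standard error 0.23, adjusted p = 0.89 in limma), 0.15 in SCOP against Control and -0.21 in CK against Control. The value in SCOP against Control turned to -0.09 without SCOP replicate 2.

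The calcium-binding proteins differed from each other. Pvalb, which encodes parvalbumin, the marker of fast-spiking interneurons, read 8.28 and 8.18 in CK, 8.41 and 8.80 in SCOP and 8.38 and 8.33 in Control. Both SCOP arrays were above all others, SCOP replicate 1 by a margin smaller than the gap between the CK replicates. Its log2 change was -0.38 in CK against SCOP (standard error 0.21, unadjusted p = 0.116, adjusted p = 0.89 in limma) and 0.25 in SCOP against Control, and these were -0.18 and 0.05 without SCOP replicate 2. Calb2, which encodes calretinin, read 8.64 and 8.59 in CK, 8.48 and 8.40 in SCOP and 9.03 and 8.73 in Control. For this gene SCOP replicate 2 was not far off, at 0.29 below the mean of the other 5 arrays. All 4 arrays from mice given SCOP were below both Control arrays, and the 3 groups did not overlap. Its log2 change in SCOP against Control was -0.43 (standard error 0.20, unadjusted p = 0.0654, adjusted p = 0.864 in limma) and -0.39 without SCOP replicate 2, but -0.28 without Control replicate 1, which was the highest array. CK against Control gave -0.26 for Calb2, with a range from -0.41 without Control replicate 2 to -0.11 without Control replicate 1.

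Reln, with a range of 0.30, had the narrowest range of the 10 over 6 arrays, but Gad1, Pvalb and Slc32a1 had narrower ones without SCOP replicate 2, at 0.22, 0.23 and 0.29. It read 6.90 and 6.94 in CK, 6.89 and 6.90 in SCOP and 7.01 and 6.71 in Control, so that the Control arrays spanned all the others. Its log2 changes were 0.02 in CK against SCOP (95% interval -0.45 to 0.49), 0.04 in SCOP against Control (-0.43 to 0.50) and 0.06 in CK against Control (-0.41 to 0.52). The first and the last were below 0 with array medians centred.

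**Figure D2:**
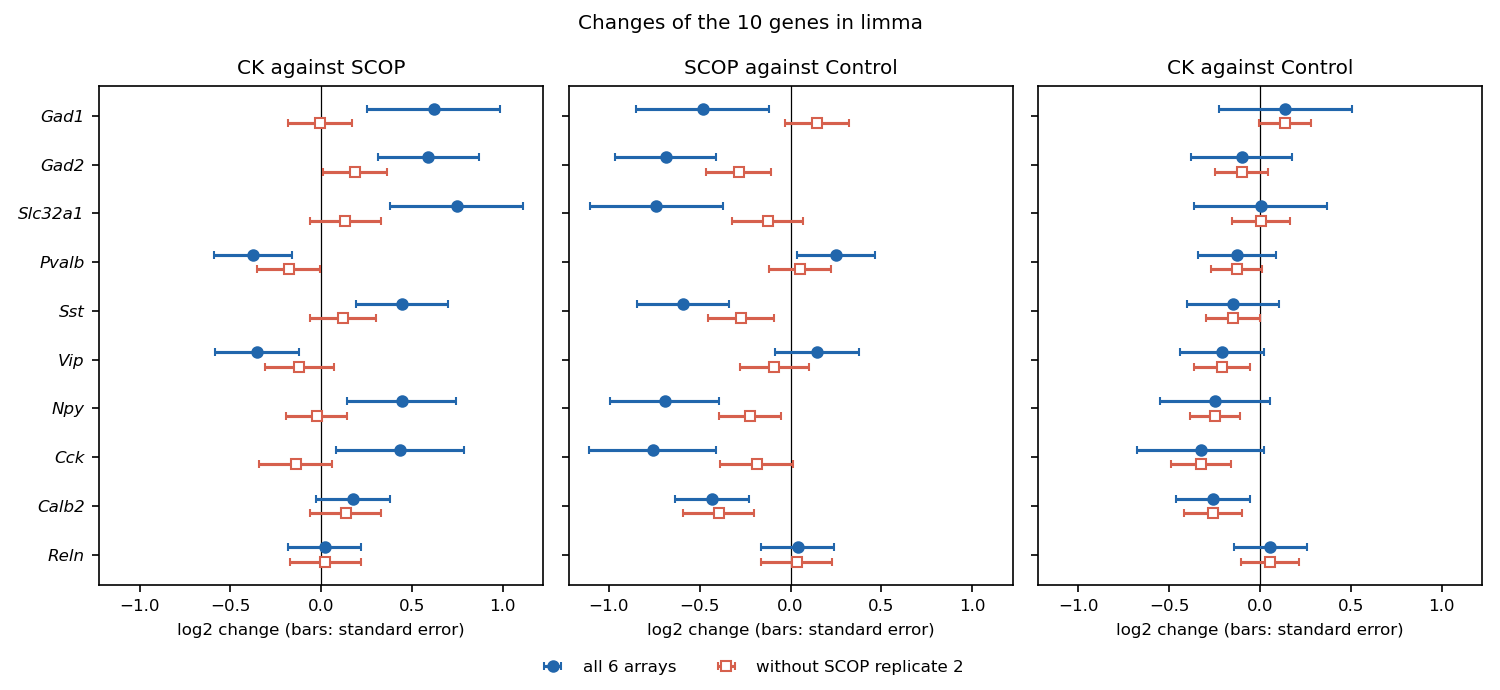
Log2 change (horizontal axis) of each gene in the 3 comparisons from limma, with all 6 arrays (filled circles) and without SCOP replicate 2 (open squares), and bars of the standard error. In both comparisons that use the SCOP arrays the values of Gad1, Slc32a1, Npy and Cck lay between -0.22 and 0.15 without SCOP replicate 2, while those of Calb2 and Reln stayed within 0.04 of their values with all arrays.

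No gene was called in any of the 3 comparisons at an adjusted p under 0.05 in limma, so 0% of all genes and none of the 10 passed. At an unadjusted p under 0.05, 2 of the 10 passed in SCOP against Control, where 3.31% of all genes did. These were Gad2 and Sst, both lower in SCOP (1.06% of all genes), and none of the 10 was higher (2.25%). In CK against SCOP none of the 10 passed at that level, where 2.57% of all genes did, 1.14% higher and 1.43% lower. In CK against Control none of the 10 passed either, where 1.44% of all genes did, 0.969% higher and 0.467% lower. Without SCOP replicate 2 none of the 10 passed in any comparison. Of all genes 1.93% were then higher and 1.83% lower in CK against SCOP, 2.92% higher and 1.83% lower in SCOP against Control, and 3.26% higher and 1.93% lower in CK against Control. Without SCOP replicate 1, which leaves SCOP replicate 2 as the lone SCOP array and assumes that it varies like the other groups, 6 of the 10 passed an adjusted p under 0.05 in limma in SCOP against Control, along with 3137 of all genes (16.1%), and 6 in CK against SCOP, along with 3240 of all genes (16.6%).

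The median log2 change of the 10 genes was 0.44 in CK against SCOP, where that over all genes was 0.02 and that over bright genes 0.11. It was -0.54 in SCOP against Control, against 0.00043 over all genes and -0.11 over bright genes. Without SCOP replicate 2 the medians of the 10 were 0.0085 and -0.16. In CK against SCOP 8 of the 10 were above 0 (52.4% of all genes) and 2 below (47.6%), but without SCOP replicate 2 there were 5 below 0 (49.2% of all genes). In SCOP against Control 3 were above 0 (50.1% of all genes) and 7 below (49.9%), and 7 were below 0 without SCOP replicate 2 as well (48.5% of all genes). In CK against Control the median was -0.14, with 3 of the 10 above 0 (53.2% of all genes) and 7 below (46.8%). Among the 8989 bright genes, 5832 were above 0 in CK against SCOP. In SCOP against Control 5829 of the bright genes were below 0, and in CK against Control 4585. These comparisons share arrays, so their values are not independent.

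Counted by whether the arrays of the groups overlap, 5 genes were lower in both SCOP arrays than in both Control arrays, namely Gad2, Sst, Npy, Cck and Calb2, where 13.3% of all genes were, and Pvalb was higher (15% of all genes). In CK against SCOP, Gad2, Slc32a1, Sst and Calb2 were higher on both CK arrays (15.5% of all genes), and Pvalb was lower (14.3% of all genes). In CK against Control, 6 of the 10 were lower on both CK arrays, namely all 4 neuropeptide genes, Pvalb and Calb2, where 15.7% of all genes were, and Gad1 was higher (18.4% of all genes). None of these 7 reached an unadjusted p under 0.05 in limma. The log2 changes of the 6 lay between -0.33 for Cck and -0.13 for Pvalb. By the methods' t-test on the 4 CK and Control arrays, Npy had an unadjusted p = 0.0288 and an adjusted p = 0.969. By that test 975 of all 19505 genes had an unadjusted p under 0.05.

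SCOP replicate 2 set 1 end of the range for most of the 10 genes. It was the lowest array for 7 (52.7% of bright genes) and the highest for 2 (24.8% of bright genes). The range was above 1 over 6 arrays for Gad1, Gad2, Slc32a1, Sst, Npy and Cck, and 16.9% of bright genes had a range that wide. Without SCOP replicate 2 the ranges were 0.22 for Gad1, 0.37 for Gad2, 0.29 for Slc32a1, 0.36 for Sst, 0.31 for Npy and 0.56 for Cck, beside a median of 0.31 over bright genes. Leaving out this array took the range to 0.23, against 0.63 with it, for Pvalb, and to 0.35, against 0.72, for Vip. For Calb2 it was 0.55, against 0.62, and for Reln 0.30 either way. Likeness between profiles was measured as the root mean square difference of log2 values centred on each gene's mean, over 6 arrays. The most alike of the 45 pairs were Npy with Cck (0.10), Npy with Sst (0.10) and Npy with Gad2 (0.10), followed by Pvalb with Vip (0.12). Over the 5 arrays without SCOP replicate 2 these differences were 0.09, 0.07, 0.11 and 0.13, and the order of pairs was another. The most alike were then Slc32a1 with Reln (0.07, against 0.50 over 6 arrays), Npy with Sst (0.07) and Vip with Cck (0.08, against 0.62). Among 10038 other genes not dim on every array, the nearest to Slc32a1 were Dhx16, Sez6l2 and Grik4 (0.05 each), the nearest to Gad1 were Trmt5, Maged1 and Acsl5 (0.03 each), and the nearest to Cck were Oscp1, Egln3 and Elovl5 (0.07 to 0.09). These 9 genes were chosen for likeness to profiles with a low value on SCOP replicate 2, so their own low value there is part of the choice.

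Several lists of other neurons were also low on SCOP replicate 2. Against each gene's mean on the other 5 arrays, the median deviation of the 10 genes on this array was -0.90, and 7 of the 10 were below 0. It was -0.66 for 13 markers of excitatory neurons, with 13 below 0, -0.76 for 15 genes of neurons in general, with 15 below 0, and -0.91 for 10 markers of striatal projection neurons, with 10 below 0. Over bright genes the median was -0.21, and 65.2% were below 0. Further interneuron subtype markers, 23 in number, had -0.51, with 15 below 0. For 12 genes of peptide processing the median was -0.56, with 10 below 0, and for 7 of GABA handling -0.51, with 6 below 0. Nearer to the bright genes were 14 peptide and reelin receptors at -0.19, with 11 below 0. So were 15 interneuron transcription factors at -0.22, with 10 below 0. The list of 10 genes of thalamus and hypothalamus had -0.23, with 8 below 0, and 4 of the olfactory bulb had -0.30, with 3 below 0. Among other cell types, 10 astrocyte genes had -0.12, 9 oligodendrocyte genes -0.11, 9 microglia genes -0.26 and 10 endothelial genes -0.61. The cerebellar and hindbrain list of 13 genes had 0.10, with 5 below 0. On the other 5 arrays the median deviation of the 10 genes lay between -0.05 on SCOP replicate 1 and 0.11 on Control replicate 1. The part of tissue makeup and of background in these values was not tested.

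**Figure D3:**
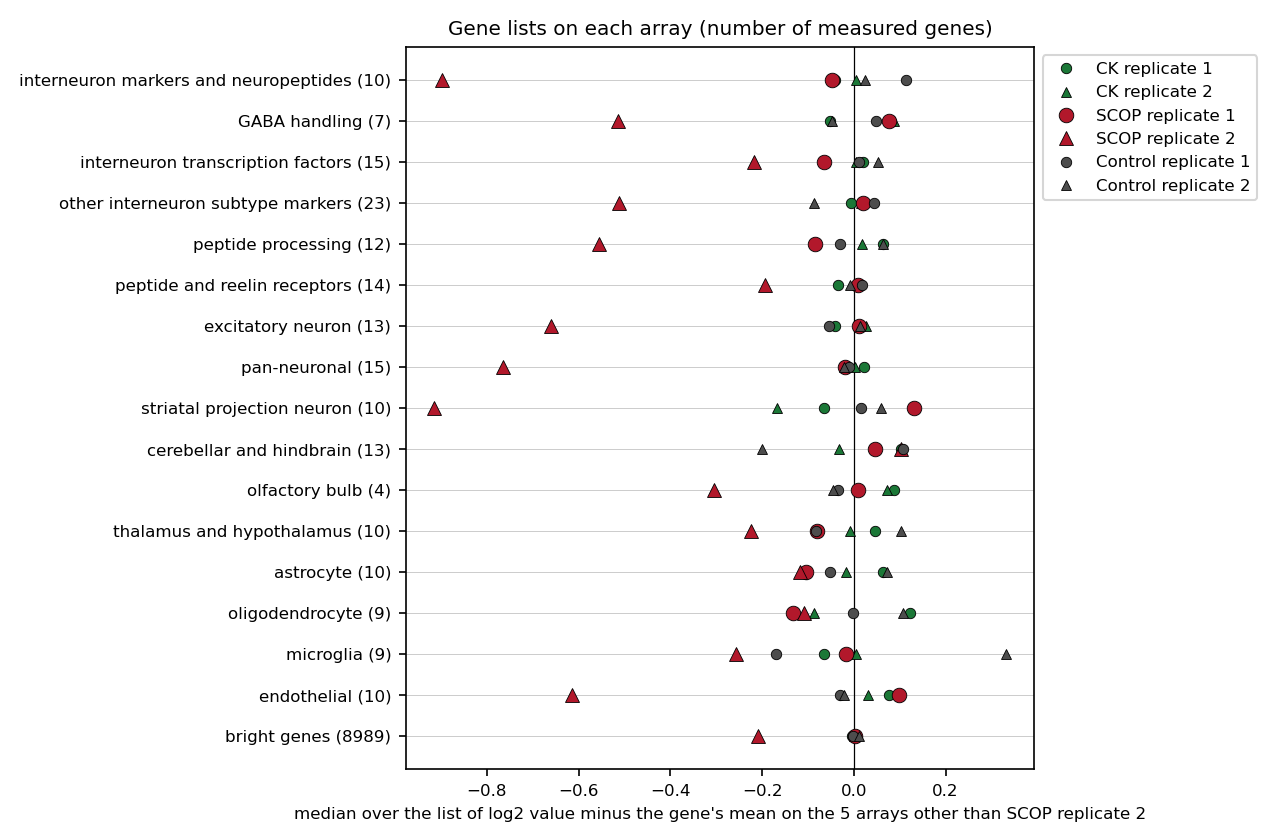
Median over each gene list (rows, with the number of measured genes) of the log2 value minus the gene's mean on the 5 arrays other than SCOP replicate 2 (horizontal axis), for each array. SCOP replicate 2, the large triangle, sits at -0.90 for the interneuron markers and neuropeptides and at -0.91 for the striatal projection neuron list, while the cerebellar and hindbrain list sits at 0.10.

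Genes that take up, break down or feed GABA gave no call. Of 7 measured, none reached an unadjusted p under 0.05 in limma in any comparison, and their median log2 change was 0.23 in CK against SCOP and -0.21 in SCOP against Control, which were -0.05 and 0.04 without SCOP replicate 2. Slc6a11, which encodes the GABA transporter GAT3 of astrocytes, read 8.86 and 9.06 in CK, 8.87 and 8.45 in SCOP and 8.85 and 9.20 in Control. Abat, the GABA transaminase, had values from 8.99 on SCOP replicate 2 to 9.50 on Control replicate 1. The amino acid transporter genes Slc38a1 and Slc38a3 were lower on SCOP replicate 2 than the mean of the other arrays, with deviations of -0.84 and -1.001. Their changes were 0.45 for Slc38a1 in CK against SCOP and -0.56 for Slc38a3 in SCOP against Control, and both crossed 0 without SCOP replicate 2. Slc6a13, which encodes the transporter GAT2 found in the meninges, was highest on that array, at 6.68 against 5.91 to 6.01 on the others.

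Of 15 measured transcription factors of the interneuron lineage, none reached an unadjusted p under 0.05 in limma in any comparison. Dlx2, a regulator of forebrain interneuron development, had 5.52 and 5.61 in CK, 5.48 and 4.67 in SCOP and 5.27 and 5.57 in Control, and its log2 change in CK against SCOP was 0.49, or 0.08 without SCOP replicate 2, where it was dim. Nr2f2, which marks many interneurons of caudal origin, lay at 8.24 to 8.35 on 5 arrays and at 6.95 on SCOP replicate 2. Sp9, another factor of the lineage, was highest on SCOP replicate 2, at 6.82 against 5.83 to 6.17. Lhx6, which specifies the Pvalb and Sst classes, was dim on every array, as were Dlx6, Sp8 and Nkx2-1.

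Of 23 further subtype markers, Chodl, a marker of long-range Sst neurons, was the lone gene at an unadjusted p under 0.05 in limma, in SCOP against Control (unadjusted p = 0.0317, adjusted p = 0.864). Its value was higher in SCOP, as it was for 2.25% of all genes at that level. It was dim on every array, with 4.43 and 4.89 in SCOP and 4.29 and 3.48 in Control, so no fold is given. Calb1, which encodes calbindin, read 8.23 and 8.05 in CK, 8.45 and 8.60 in SCOP and 8.12 and 8.03 in Control. Both SCOP arrays were above all others, and the log2 change against Control was 0.45 (standard error 0.20, unadjusted p = 0.0522, adjusted p = 0.864 in limma) and 0.38 without SCOP replicate 2. Purkinje cells of the cerebellum make both calbindin and parvalbumin. In CK against SCOP the log2 change was -0.38 for Calb1, as for Pvalb, beside -0.42 for Pcp2 and -0.40 for Car8, both Purkinje cell markers, and -0.40 for Gabra6, a marker of cerebellar granule cells. Pcp2, Car8 and Gabra6 had the lowest changes of the cerebellar and hindbrain list in this comparison, so they do not stand for it. Without SCOP replicate 2 the change was -0.54 for Pcp2, -0.33 for Car8 and -0.22 for Gabra6, and the median of the list was 0.02. In SCOP against Control Pcp2 had 0.27, Car8 0.43 and Gabra6 0.27. Over the whole cerebellar and hindbrain list of 13 genes the median change was -0.03 in CK against SCOP. There 6 were above 0 and 7 below, with values from -0.42 to 0.66, so the list did not move as a whole. In SCOP against Control the median of the list was 0.12, with 8 above 0 and 5 below. The part of cerebellar tissue in the values of Pvalb and Calb1 was not tested. Elfn1, which shapes synapses onto Sst interneurons, had a log2 change of -0.73 in SCOP against Control, or -0.27 without SCOP replicate 2, where it was dim.

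Neuropeptides are cut from precursors by proprotein convertases in dense core vesicles. Of 12 measured genes of this machinery, Pcsk1 and Vgf passed an unadjusted p under 0.05 in limma in CK against SCOP, both higher in CK (1.14% of all genes), and none passed with a lower value. In SCOP against Control only Pcsk1 did, with a lower value in SCOP (1.06% of all genes). Pcsk1, which encodes prohormone convertase 1, read 5.45 and 5.65 in CK, 4.93 and 4.65 in SCOP and 5.25 and 5.44 in Control. Both SCOP arrays were below all others and in the dim range of their arrays. Folds against them are therefore bounds, set at the lowest gene value above the dim level of each SCOP array. The bounds compare group means and leave out the spread between arrays. Pcsk1 was at least 1.21-fold higher in CK than in SCOP (unadjusted p = 0.00723, adjusted p = 0.89 in limma), and its unadjusted p was 0.0154 without SCOP replicate 2. In SCOP against Control it was at least 1.05-fold lower in SCOP (unadjusted p = 0.0315, adjusted p = 0.864 in limma), where it was the lone gene of the 12 to pass an unadjusted p under 0.05, and its unadjusted p was 0.071 without SCOP replicate 2. Vgf, a secreted granin-like protein that neurons induce with activity, read 6.77 and 6.85 in CK, 6.49 and 5.44 in SCOP and 6.68 and 6.73 in Control. Its value on SCOP replicate 2 was dim, and the log2 change in CK against SCOP rests in part on it, at 0.85 (standard error 0.32, unadjusted p = 0.0307, adjusted p = 0.89 in limma), or 0.32 without SCOP replicate 2. Chgb, which encodes a granin of the vesicle core, had -0.54 in SCOP against Control, or -0.17 without SCOP replicate 2.

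Receptors for these peptides and for reelin lay near or below the dim level in many cases, 6 of 14 being dim on every array, and none reached an unadjusted p under 0.05 in limma with all arrays. Npy1r, a receptor of neuropeptide Y, had 3.13 on SCOP replicate 2, against 4.58 to 4.92 elsewhere, all dim. Npy2r, its presynaptic receptor, had 5.18 and 5.44 in CK and 5.07 and 4.87 in Control. Both Control values were dim, so that the fold between the group means is a bound, at least 1.18-fold higher in CK. This bound leaves out the spread between arrays, and no difference was shown (unadjusted p = 0.137, adjusted p = 0.9999 in limma). Vipr2, a receptor for Vip, was dim on every array, with 4.64 and 4.71 in SCOP and 4.42 and 4.27 in Control. The reelin receptor genes Vldlr and Lrp8 had values within 6.72 to 7.02 and 6.11 to 6.34 on all 6 arrays. Dab1, which encodes their adaptor, had 7.55 on SCOP replicate 2, against 8.20 to 8.33 elsewhere.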

How the data were processed

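Total RNA of mouse brain was hybridised to one-colour Affymetrix whole-transcript arrays. The deposited log2 values, 1 for each probe set, came from RMA per the submitters' processing notes (version: not given in the sources used), and were not normalized again. Gene symbols came from the platform's annotation, which gives 1 symbol to 19572 of 22206 probe sets. Where several probe sets shared a symbol (55 genes), that of highest mean was kept, which left 19505. All 6 arrays were fitted together in limma 3.58.1 (R 4.3.3, lmFit and eBayes, 3 residual and 5.08 prior degrees of freedom), with Benjamini-Hochberg adjustment over all genes. The script was tested on simulated data. The methods' t-test is the Student's test that the study names, run two-sided. Samples within a group are biological replicates by their labels, and p-values set a change against the spread between these samples. In limma this spread is pooled over the 3 groups and moderated by the spread over all genes. The number of arrays limits the precision.

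The 10 genes and the gene lists were chosen with earlier results of these data known. By rule, the named genes were the 10, up to 3 with the smallest p from each list (cell type lists are given as medians here, but for Pcp2), any GABA handling or receptor gene, and the genes nearest in pattern to the 3 members with the widest range. Lhx6, Dlx6, Sp8, Nkx2-1, Car8 and Gabra6 were named after their values were seen. Alternatives were quantile, median and cyclic loess scaling, averaged probe sets, leaving out genes under the 25th percentile or under the median, a trended and a robust eBayes, blocking on replicate number, fitting only the 4 arrays of a comparison, the methods' t-test and each array left out.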

Additional observations from a re-analysis of the deposited data

How the results depend on the processing

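Over 17 alternatives, 483 of the 510 changes of the 10 genes kept their direction and stayed above an adjusted p of 0.05 in limma or the methods' t-test, 15 turned and 12 passed, all of these without SCOP replicate 1. Many of these alternatives could not turn a change, because they leave its value as it was. They are averaged probe sets, both filters, both eBayes variants, the replicate block, the methods' t-test and the fit of only the 4 arrays compared. Leaving out an array of the group not compared does the same. Only the scalings and leaving out an array of a compared group could alter a value. In the fits that leave out 1 array, the lone array of a group is assumed to vary like the others. Leaving out 1 array gave 0 to 3240 genes called in CK against SCOP, 0 to 3137 in SCOP against Control and 0 in CK against Control, where the other alternatives gave 0 throughout; at an unadjusted p under 0.05 the main counts were 502, 646 and 280, those with only the 4 arrays compared 271, 307 and 1011, those with genes under the 25th percentile left out 315, 406 and 174, with genes under the median left out 137, 180 and 58, and by the methods' t-test 584, 552 and 975, while leaving out 1 array gave 149 to 6734, 252 to 6731 and 101 to 1011. With 1 array left out, the median change of the 10 genes ran from 0.0085 (without SCOP replicate 2) to 0.84 (without SCOP replicate 1) in CK against SCOP, from -1.004 (without SCOP replicate 1) to -0.16 (without SCOP replicate 2) in SCOP against Control, and from -0.17 to -0.085 in CK against Control, where it was -0.21 with array medians centred. The number of the 10 at an unadjusted p under 0.05 ran from 0 to 8 in each comparison that uses the SCOP arrays, and was 0 in CK against Control, when 1 array was left out. In SCOP against Control it was 5 with array medians centred, 1 with cyclic loess, 0 by the methods' t-test and 0 with only the 4 arrays compared, against 2 in the main fit, and in CK against Control it was 1 by the methods' t-test. The cause was not tested.

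With 1 array left out, Cck ran from -0.14 to 1.005, Gad1 from -0.0067 to 1.25, Npy from -0.025 to 0.91, Reln from -0.0020 to 0.040 and Slc38a1 from -0.0066 to 0.91 in CK against SCOP. In SCOP against Control, Gad1 ran from -1.11 to 0.15, Reln from -0.11 to 0.19, Vip from -0.088 to 0.38 and Slc38a3 from -1.13 to 0.013. In CK against Control, Reln ran from -0.092 to 0.21 and Slc32a1 from -0.14 to 0.15. Reln in CK against SCOP was -0.085 with quantile normalization, -0.025 with array medians centred and -0.099 with cyclic loess, and in CK against Control it was -0.010 with array medians centred, where Slc32a1 was -0.062.

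The share of higher values among genes at an unadjusted p under 0.05 in limma was 44.4%, 68.0% and 67.5% in the 3 comparisons, in the order above, 33.7%, 50.9% and 36.2% with array medians centred, 45.5%, 55.1% and 51.9% with quantile normalization, and 51.0%, 51.8% and 51.4% with cyclic loess. Arrays of the groups share replicate numbers in the labels, but deviations of same-numbered arrays correlated at -0.028, 0.024 and -0.0049 across genes, so the numbers do not pair the samples. With the replicate block 1 of the 10, Slc32a1, reached an unadjusted p under 0.05 in limma in CK against SCOP, where 525 of all genes did. In SCOP against Control 3 did (Gad2, Slc32a1 and Npy), with 636 of all genes, and in CK against Control 0, with 251. No gene was called at an adjusted p under 0.05.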
